A study of Mus musculus with 6 samples.

Results

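The insulin-like growth factor (IGF) system was followed in control and senescent mouse adult fibroblasts through 10 genes, which were the rows of the gene count table named *Igf1*, *Igf2*, *Igf1r*, *Igf2r*, *Igfbp2*, *Igfbp3*, *Igfbp4*, *Igfbp5*, *Igfbp6* and *Igfbp7*. They were 10 of 43346 genes in the table, and 10 of 10 were among the 17589 genes with enough counts to be tested. Compared to control cells, senescent cells had 14.6-fold more *Igf2* RNA, while *Igf1* RNA stood at 30.5 ± 1.06 in control and 31.8 ± 3.37 in senescent cells (mean ± SD, n = 3 each, in CPM, the counts of a gene scaled to a common library size). RNAs of 5 of the 6 binding proteins were lower in senescent cells, from 1.30-fold for *Igfbp4* to 3.81-fold for *Igfbp5*, and *Igfbp7* was 1.19-fold higher. Of the receptors, *Igf1r* was 1.44-fold higher and *Igf2r* stood at 305 ± 5.54 CPM in the control and 303 ± 3.59 CPM in the senescent group (SD, n = 3 each).

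IGF1 and IGF2 are secreted growth factors that signal through the IGF1 receptor, a tyrosine kinase whose adaptors feed the PI3K and AKT pathway. The IGF2 receptor, which also carries mannose-6-phosphate-tagged enzymes, takes up IGF2 for breakdown in lysosomes. The IGF binding proteins hold IGFs outside the cell, extend their life and restrict or deliver them to the receptor, and several belong to the factors that senescent fibroblasts are known to secrete.

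The cells were primary fibroblasts from the ears of adult female C57BL/6J mice, grown in medium with 10% serum at 3% oxygen. Control cells were sham irradiated. Senescent cells were exposed to 20 Gy of X-rays and kept for 21 days before use. No time between sham irradiation and use is given for control cells, so irradiation and time in culture cannot be told apart. Both groups received 100 nM dexamethasone for 2 hours, a glucocorticoid used to set the circadian clock of cultured cells to a common phase. They were harvested 12 hours afterwards, so that every value below is from a single time and every control carries the dexamethasone too. The paper reports longer *Bmal1* and *Per2* periods in senescent cells, so the groups may differ in clock phase at that time, which was not tested. Each group had 3 libraries, and neither the labels nor the methods say whether these came from separate animals or cultures, so the p-values measure the spread between these samples, which may be technical. Since whole cultures were sequenced, fewer cells of a type and less RNA per cell cannot be told apart.

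The libraries held between 50288454 and 82229553 counts in genes, and a count of 3, the upper limit that a count of 0 allows, corresponded to between 0.0355 and 0.0613 CPM. The senescence labels were checked on the cell cycle inhibitors *Cdkn1a*, which encodes p21 and rose from 123 to 619.5 CPM, and *Cdkn2a*, which encodes p16 and ARF and rose from 1.20 to 4.50 CPM, and on the proliferation marker *Mki67*, which fell from 589 to 9.60 CPM. The fibroblast label was checked on 10 markers, whose summed level was between 63764 and 65730 CPM in control cells and between 47958 and 53449 CPM in senescent cells. The most abundant of them was *Fn1* (fibronectin), at 45655 and 43858 CPM, followed by *Col1a2* at 5612 and 1531 CPM. Of the 10, 8 were called at an adjusted p under 0.05, 3 higher and 5 lower in senescent cells. Over all genes tested, 70.3% were called, 36.2% higher and 34.1% lower, and the marker counts of this paragraph stand beside those shares. Chosen after their values were seen, the collagen gene *Col1a1* went from 4435 to 763 CPM, while the matrix proteoglycan gene *Dcn* went from 56.6 to 643 CPM and the surface marker *Thy1* from 107 to 298 CPM. Of 9 cartilage cell markers, which the ear can supply, 7 were tested and 7 were lower in senescent cells, with summed levels between 6749 and 7235 CPM in control cells and between 588 and 655 CPM in senescent cells. *Col2a1*, a defining cartilage collagen, was at 2717 and 168 CPM, whereas the defining cartilage gene *Matn1* was counted 1, 1 and 0 times in control and 8, 10 and 10 times in senescent libraries. These cartilage markers moved in the same direction as 5 of the 6 binding protein RNAs described below, and their part in those results was not tested. Endothelial markers were called higher in 5 of 5 tested, with sums of 2.55 to 2.93 CPM in control and 8.16 to 8.71 CPM in senescent libraries, and macrophage markers in 4 of 4 tested, with sums of 5.53 to 6.05 CPM and 9.62 to 11.5 CPM. Both lists moved in the same direction as *Igf2*, *Igf1r* and *Igfbp7*, and their part in those results was not tested. The summed markers of keratinocytes, Schwann cells with melanocytes, and adipocytes were at most 6.08 CPM in any library, and those of skeletal muscle at most 27.7 CPM.

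Differences were tested with edgeR's quasi-likelihood test over all 17589 genes with Benjamini-Hochberg adjustment, and a gene was called at an adjusted p under 0.05. Of the 10 IGF genes, 8 were called, 3 higher and 5 lower in senescent cells, and 8 had control and senescent values that did not overlap. Among all genes tested, 70.3% were called, with 36.2% higher and 34.1% lower, and 75.3% had values that did not overlap, so a call alone sets these genes little apart from the rest, and what follows concerns which ones moved, in which direction and how far. The median log2 fold change was -0.19 over the 10 IGF genes and 0.01 over all genes tested. The study's methods and its results text give different p cuts for calling genes, and of these only the methods' rule was applied here. Under the rule in the study's methods, an unadjusted p under 0.05 with an absolute log2 fold change over 1, 5 of the IGF genes were called, 1 higher and 4 lower, against 30.1% of all genes (17.8% higher and 12.3% lower). *Igfbp2* passed that rule narrowly, at -1.02. Some other fits put it short of the cut, such as -0.95 with scaling by library size alone and -0.79 without senescent library 3. Others put it past the cut, such as -1.12 without control library 1.

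**Figure D1:**
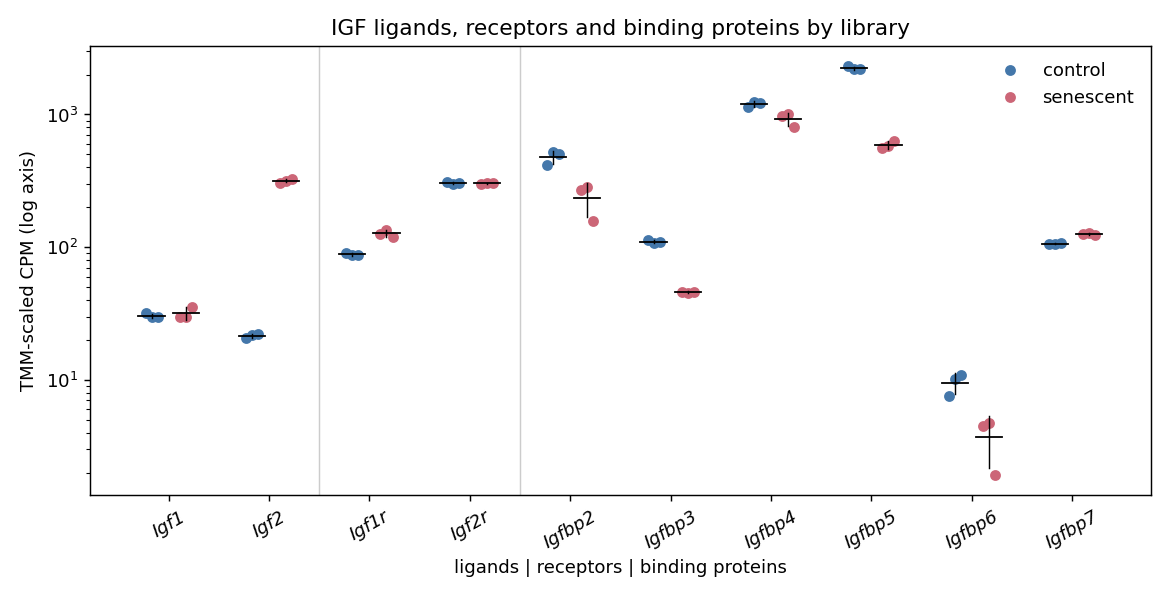
TMM-scaled CPM of each IGF gene on a log axis, with 1 point per library, and the mean and SD of each group beside the points. *Igf2* sits between 20.8 and 22.2 CPM in the 3 control libraries and between 307 and 324 CPM in the 3 senescent libraries, whereas the points of *Igf1* and of *Igf2r* overlap between groups.

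*Igf2*, the fetal growth factor, lies on chromosome 7 at 142650766 to 142666816 on the minus strand (mm10, ENSMUSG00000048583), and the GENCODE M21 annotation gives it 9 transcripts of 2 to 6 exons. It had 20.8, 21.8 and 22.2 CPM in the control libraries (1036, 1305 and 1087 counts) and 307, 317.5 and 324 CPM in the senescent libraries (17030, 25159 and 27333 counts). Every senescent library was far above every control library, and the spread within each group was small beside the gap. On the log2 scale the difference was 3.87 ± 0.06 (SE) with a 95% interval from 3.73 to 4.01 (edgeR adjusted p = 9.63e-09), and 4.92% of tested genes had a larger absolute change.

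*Igf1*, the growth factor made under growth hormone, lies on chromosome 10 at 87858265 to 87937042 on the plus strand (ENSMUSG00000020053). It had 31.7, 29.9 and 29.9 CPM in the control libraries and 29.8, 29.9 and 35.7 CPM in the senescent libraries. The groups overlapped, with senescent library 3 above the other 5. The log2 fold change was 0.06 with a 95% interval from -0.14 to 0.26 (edgeR adjusted p = 0.561). Its direction depended on the processing: it was -0.02 without senescent library 3, and -0.18 (edgeR adjusted p = 0.00575) in a fit with a term for the GC content of transcripts, an alternative that was added after seeing the data.

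Levels of different genes were compared per length, as CPM per kilobase of exon, unless stated otherwise. On that scale *Igf2* exceeded *Igf1* by a ratio of 1.23 ± 0.0826 in control cells and of 17.3 ± 1.42 in senescent cells (SD, n = 3 each). The summed level of both ligands per kilobase was 6.83, 6.83 and 6.90 in the control libraries and 56.7, 58.5 and 60.2 in the senescent libraries, an 8.53-fold higher mean. Per kilobase, nearly the whole of the ligand RNA in senescent cells was thus *Igf2*, while control cells held the RNAs of both ligands at like levels. The order in control cells rests on the division by length. In CPM alone, *Igf1* was above *Igf2* in control cells, at means of 30.5 and 21.6, and below it in senescent cells, at 31.8 and 316.

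Both ligand genes are overlapped on the opposite strand by an antisense gene, and the strand setting of the counting is not given in the sources used here, so reads of the partners may not be separated. The overlaps given here are of whole gene spans with introns, and the exon bases shared were not measured. *Igf2os* overlaps *Igf2* by 7124 bases and was counted 2, 10 and 8 times in control and 49, 59 and 83 times in senescent libraries. *Igf1os* overlaps *Igf1* by 5117 bases and was counted 0, 5 and 2 times in control and 2, 4 and 3 times in senescent libraries. Both antisense genes were thus under 1 CPM in every library, far under the ligand genes they overlap.

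*H19*, a noncoding RNA that shares an imprinted region with *Igf2*, lies on the same strand with 72622 bases between the genes. It had 262, 279 and 277 CPM in the control libraries and 100.0, 102 and 90.5 CPM in the senescent libraries. The groups did not overlap and *H19* moved the other way from *Igf2*, a change of -1.48 ± 0.07 on the log2 scale (SE, edgeR adjusted p = 6.08e-07). *Igf2* is normally read from the paternal and *H19* from the maternal chromosome, and the counts do not separate the parental copies.

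RefSeq promoter windows on GRCm38.p6, the assembly behind mm10, were found for 10 of the 10 genes, 14 windows in all, of which the 250 bases before the start were searched. *Igf2* has 4 of these windows. The outermost and the innermost are shown because *Igf2* had the largest rise and is read from several starts. Neither the E-box CACGTG, which the clock factors BMAL1 and CLOCK read, nor the AP-1 motif TGACTCA with its other-strand form TGAGTCA occurs in any of the 4, which says only that these letters are not in these windows. Both sequences are on the minus strand, from chr7:142666817-142667066 and chr7:142657497-142657746, and have no capitals because nothing was matched.
Igf2, outermost start: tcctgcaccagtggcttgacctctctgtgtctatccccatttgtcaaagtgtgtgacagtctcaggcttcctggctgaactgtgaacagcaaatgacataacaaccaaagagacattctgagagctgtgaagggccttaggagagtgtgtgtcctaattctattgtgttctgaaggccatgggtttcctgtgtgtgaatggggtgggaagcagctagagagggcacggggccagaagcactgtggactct
Igf2, innermost start: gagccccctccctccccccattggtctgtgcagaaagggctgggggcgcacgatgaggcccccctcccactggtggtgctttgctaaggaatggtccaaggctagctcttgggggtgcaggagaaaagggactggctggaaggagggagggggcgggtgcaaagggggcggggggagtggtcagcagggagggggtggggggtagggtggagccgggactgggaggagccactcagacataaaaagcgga

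*Igf1r*, the signalling receptor, lies on chromosome 7 at 67952859 to 68226780 on the plus strand (ENSMUSG00000005533). It had 91.1, 86.7 and 87.3 CPM in the control libraries and 126, 136 and 119 CPM in the senescent libraries. All 3 senescent libraries were above all 3 control libraries. Fitted across libraries, the change was 0.52 ± 0.06 (log2, SE) with a 95% interval from 0.37 to 0.67 (edgeR adjusted p = 0.000186). Its gene model in the deposited table ends earlier than in GENCODE M21, which runs to 68233668, so its level per length rests on the shorter exon length of 4489 bases.

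*Igf2r*, the scavenging receptor, lies on chromosome 17 at 12682406 to 12769664 on the minus strand (ENSMUSG00000023830). It had 310.3, 299 and 306 CPM in the control libraries and 299.5, 307 and 304 CPM in the senescent libraries. The groups overlapped throughout, and the log2 fold change was -0.01 with a 95% interval from -0.12 to 0.11 (edgeR adjusted p = 0.876), so that a change of more than 0.12 in either direction on the log2 scale lies outside the interval. Per kilobase, *Igf2r* exceeded *Igf1r* by a ratio of 1.64 ± 0.0237 in control cells and 1.14 ± 0.0694 in senescent cells (SD, n = 3 each). Of the pair, *Igf1r* was called and *Igf2r* was not.

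The *Igf2r* promoter window is shown because it held the E-box at 2 places, the first letter lying 48 and 7 bases before the RefSeq start. Across 32851 promoters of the same length, 6.02% held an E-box, and of the 14 windows of the IGF genes 2 did. The sequence is from chr17:12769707-12769956 on the minus strand, with the E-boxes in capitals.
Igf2r: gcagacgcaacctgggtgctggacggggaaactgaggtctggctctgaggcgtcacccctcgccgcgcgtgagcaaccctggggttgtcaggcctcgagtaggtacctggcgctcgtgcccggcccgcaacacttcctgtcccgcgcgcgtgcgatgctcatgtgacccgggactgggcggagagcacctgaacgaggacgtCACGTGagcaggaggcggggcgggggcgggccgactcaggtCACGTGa

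**Figure D2:**
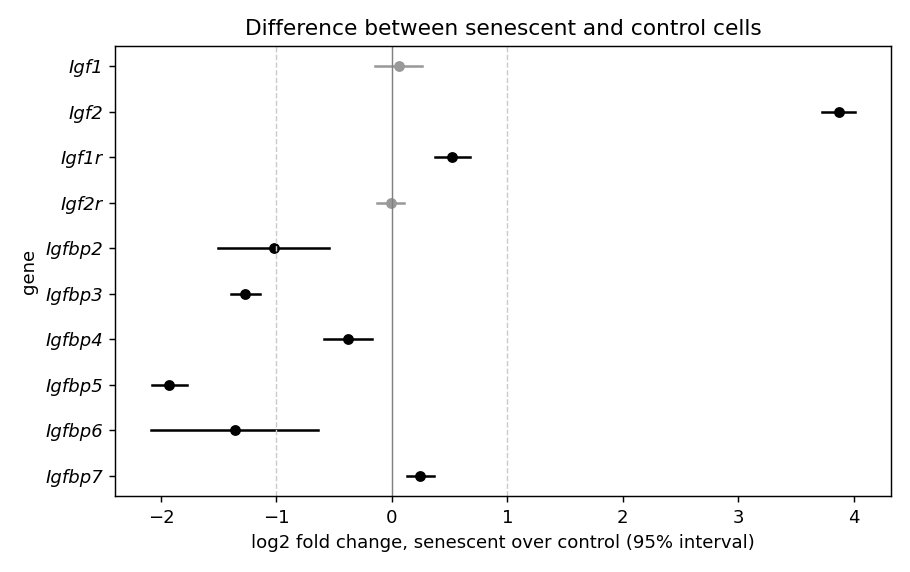
Log2 fold change of each IGF gene, senescent over control, with its 95% interval from edgeR on the horizontal axis. *Igf2* lies at 3.87, the intervals of *Igf1* and *Igf2r* cross 0, and the intervals of *Igfbp2* to *Igfbp6* lie under 0.

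*Igfbp5*, a binding protein held in the extracellular matrix, had the highest control level of the 10 genes per kilobase and fell furthest. It had 2306, 2207 and 2195 CPM in the control libraries and 557, 574 and 631 CPM in the senescent libraries. The groups were far apart and the spread within each was small. This was a log2 difference of -1.93 ± 0.07 (SE) with a 95% interval from -2.08 to -1.78 (edgeR adjusted p = 1.49e-07), which is a 3.81-fold lower level. The percentile of this change among all genes tested was 3.98, counted from the lowest.

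*Igfbp3*, the main carrier of IGFs in blood, had 114, 107 and 109 CPM in the control libraries and 46.3, 44.9 and 46.1 CPM in the senescent libraries. The groups did not overlap and the senescent libraries lay within 1 CPM of their mean. The level was 2.41-fold lower, a change of -1.27 ± 0.05 on the log2 scale (SE, edgeR adjusted p = 4.20e-07). *Igfbp3* lies on chromosome 11 at 7206086 to 7213923 on the minus strand (ENSMUSG00000020427), and its neighbour *Igfbp1*, a liver-made binding protein with 3539 bases between them, was counted 0, 0 and 0 times in control and 1, 0 and 1 times in senescent libraries.

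*Igfbp2*, which can also bind integrins at the cell surface, had 419, 518 and 506 CPM in the control libraries and 269, 282 and 157 CPM in the senescent libraries. The groups did not overlap, and control library 1 and senescent library 3 were the lowest of their groups. On the log2 scale the difference was -1.02 ± 0.21 (SE) with a 95% interval from -1.51 to -0.54 (edgeR adjusted p = 0.00268). It was -0.79 without senescent library 3 and -0.88 without both low libraries.

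*Igfbp2* and *Igfbp5* are neighbours on chromosome 1. *Igfbp2* runs from 72824503 to 72852474 on the plus strand (ENSMUSG00000039323) and *Igfbp5* from 72857932 to 72874884 on the minus strand (ENSMUSG00000026185), so that their ends face each other across 5457 bases. Both were lower in senescent cells. The windows of both are shown because these adjacent genes fell together by unlike amounts. *Igfbp2* held an E-box, with its first letter 142 bases before its outer start (chr1:72824230-72824479, plus strand). It also held an AP-1 motif 39 bases before an inner start. That motif lies past the first exon base of its window in GENCODE M21 and is shown with 30 bases in all (chr1:72825336-72825365, plus strand). *Igfbp5* held neither in its window, of which the 231 bases outside exons are given (chr1:72874885-72875115, minus strand). The AP-1 motif occurred in 4.46% of the 32851 promoters and in 1 of the 14 windows of the IGF genes, and capitals mark the motifs.
Igfbp2, outer start: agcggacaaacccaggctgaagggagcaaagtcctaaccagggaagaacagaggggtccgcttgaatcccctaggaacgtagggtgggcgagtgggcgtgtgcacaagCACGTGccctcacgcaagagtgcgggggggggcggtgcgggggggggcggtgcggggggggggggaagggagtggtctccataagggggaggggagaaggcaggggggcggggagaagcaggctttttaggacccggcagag
Igfbp2, round the AP-1 motif: tgaaacaaaactTGAGTCAgtgaccaccgg
Igfbp5: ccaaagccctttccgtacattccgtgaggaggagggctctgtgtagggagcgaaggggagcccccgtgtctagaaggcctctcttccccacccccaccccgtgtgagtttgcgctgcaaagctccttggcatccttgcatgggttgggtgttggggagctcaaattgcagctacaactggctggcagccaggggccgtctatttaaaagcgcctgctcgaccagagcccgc

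*Igfbp4*, a binding protein that restrains IGFs until the protease pappalysin cuts it, had 1134, 1246 and 1230.2 CPM in the control libraries and 969, 1003 and 806 CPM in the senescent libraries. The groups did not overlap, although control library 1 and senescent library 3 were again the lowest. The level was 1.30-fold lower, with a log2 fold change of -0.38, a standard error of 0.09 and a 95% interval from -0.59 to -0.17 (edgeR adjusted p = 0.00596), and -0.28 without senescent library 3. *Igfbp4* lies on chromosome 11 at 99041244 to 99054392 on the plus strand (ENSMUSG00000017493).

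*Igfbp6*, which prefers IGF2 over IGF1, was the least abundant of the binding proteins, with 7.62, 10.1 and 10.9 CPM in the control libraries (380, 606 and 532 counts) and 4.53, 4.77 and 1.93 CPM in the senescent libraries (251, 378 and 163 counts). The groups did not overlap, but senescent library 3 was well under the other 2 of its group, and control library 1 was the lowest control. Fitted across libraries, the change was -1.36 ± 0.31 (log2, SE) with a 95% interval from -2.09 to -0.64 (edgeR adjusted p = 0.00505), and it was -1.03 without senescent library 3 and -1.16 without control library 1 as well. *Igfbp6* lies on chromosome 15 at 102144362 to 102149511 on the plus strand (ENSMUSG00000023046).

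*Igfbp7*, a secreted relative that binds IGFs weakly and has been studied in senescence, was the binding protein that rose. It had 105, 106 and 107 CPM in the control libraries and 126, 128 and 124 CPM in the senescent libraries. The change was small and the libraries of each group nearly alike. This was a log2 difference of 0.25 ± 0.05 (SE) with a 95% interval from 0.13 to 0.36 (edgeR adjusted p = 0.00266), and it was 0.49 (edgeR adjusted p = 0.0117) with the GC content term. *Igfbp7* lies on chromosome 5 at 77349240 to 77408045 on the minus strand (ENSMUSG00000036256).

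The total level of the 6 binding protein RNAs per kilobase was 997, 1061 and 1051 in the control libraries and 581, 599.9 and 491 in the senescent libraries. The groups did not overlap, and the senescent mean was 0.538 of the control mean. The make-up of this total also differed. In control cells *Igfbp5* was the largest part at 36.0% ± 2.18, followed by *Igfbp4* at 26.3% ± 0.475 and *Igfbp2* at 25.1% ± 2.03 (SD, n = 3). In senescent cells *Igfbp4* was the largest part at 37.6% ± 0.385 although its own level was lower, *Igfbp5* made up 17.8% ± 3.14 and *Igfbp7* rose from 8.45% ± 0.241 to 18.8% ± 1.73 (SD, n = 3). *Igfbp2* took 22.6% ± 4.59 in senescent cells, which overlapped its control share. *Igfbp3* and *Igfbp6* were minor in both groups, at 3.40% ± 0.217 and 0.826% ± 0.125 in control cells and 2.65% ± 0.317 and 0.590% ± 0.205 in senescent cells. These shares were not tested, and with 3 libraries against 3 an exact permutation test cannot go below p = 0.1.

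**Figure D3:**
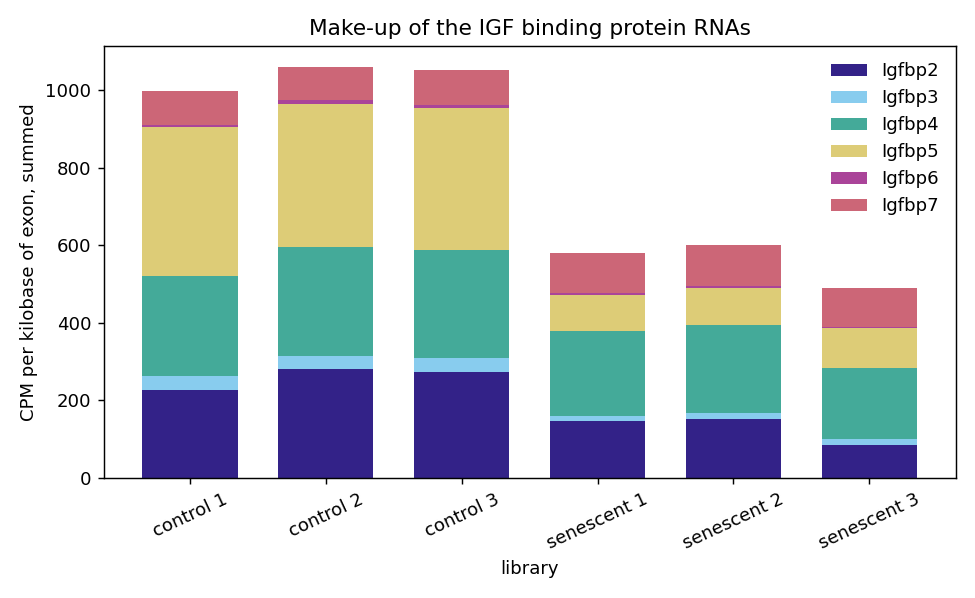
Level of the 6 binding protein RNAs in each library as stacked bars, in CPM per kilobase of exon. The 3 senescent bars reach between 491 and 599.9, under the 3 control bars at 997 to 1061, and the *Igfbp5* part is smaller in each of them.

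Per kilobase, the order in control cells was *Igfbp5* (372), *Igfbp4* (272), *Igfbp2* (260.2), *Igfbp7* (87.5), *Igfbp3* (35.2), *Igf2r* (32.3), *Igf1r* (19.7), *Igfbp6* (8.58), *Igf2* (3.78) and *Igf1* (3.08). Of these neighbours, *Igfbp4* and *Igfbp2* overlapped between libraries and no other pair did. In senescent cells it was *Igfbp4* (209.7), *Igfbp2* (128), *Igfbp7* (104), *Igfbp5* (97.8), *Igf2* (55.3), *Igf2r* (32.1), *Igf1r* (28.3), *Igfbp3* (14.6), *Igfbp6* (3.37) and *Igf1* (3.21). Here *Igfbp2* overlapped *Igfbp7*, *Igfbp7* overlapped *Igfbp5*, and *Igfbp6* overlapped *Igf1*. *Igf2* thus stood below both receptors in control cells and above both in senescent cells.

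Some libraries stood apart in a way that touched these genes. *Igfbp2*, *Igfbp4*, *Igfbp6* and *Igfbp7* were lowest in both control library 1 and senescent library 3. Relative to its group means on the log2 scale, *Igfbp6* was at -0.31 and -0.84 there, *Igfbp2* at -0.19 and -0.54, *Igfbp4* at -0.08 and -0.19, and *Igfbp7* at -0.01 and -0.03. The transcripts of these 4 genes have a GC content of 62.1% (*Igfbp2*), 60.7% (*Igfbp6*), 58.8% (*Igfbp7*) and 55.1% (*Igfbp4*), against a median of 49.6% over tested genes. *Igf2*, at 55.8% GC, did not share the pattern, since it was at -0.06 in control library 1 but at 0.03, the highest of its group, in senescent library 3. Across 17425 genes of the same libraries, which are not independent replicates, the deviation of a library from its group mean correlated with transcript GC content with Spearman's rho of -0.479, 0.360 and 0.299 in the control libraries and 0.596, 0.658 and -0.761 in the senescent libraries. The part of this library pattern in the values of these genes was not tested by itself. The fit with a GC content term set that term in each library. It can therefore also take out a GC trend between the groups, and does not separate that from deviations within a group. In that fit *Igfbp2* was at -0.73, *Igfbp4* at -0.26 and *Igfbp6* at -1.12 on the log2 scale, still called by edgeR and lower. *Igf2* was at 4.03 in the same fit.

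**Figure D4:**
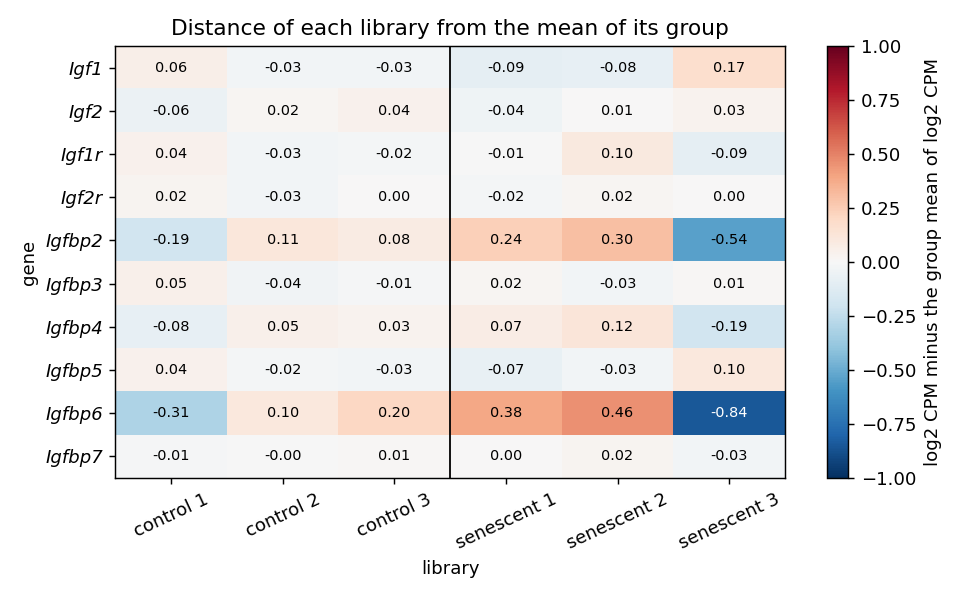
Distance of each library from the mean of its group in log2 CPM for the 10 IGF genes (rows) and 6 libraries (columns), with red above and blue below the mean. *Igfbp6* at -0.84 and *Igfbp2* at -0.54 in senescent library 3 are the furthest from their group.

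Of 4 other genes related to the IGF binding proteins, 2 were tested. *Esm1* (endocan), a proteoglycan with a domain like those of IGF binding proteins, was read 32, 26 and 18 times in control and 2243, 3514 and 3906 times in senescent libraries. Its level rose from 0.482 ± 0.143 to 43.7 ± 2.96 CPM (SD, n = 3 each), a change of 6.50 ± 0.16 on the log2 scale (SE, edgeR adjusted p = 3.30e-08). *Esm1* is also made by endothelial cells, whose 5 tested markers had a median log2 fold change of 2.25 and a summed level of 8.16 to 8.71 CPM in senescent libraries, and their part in its rise was not tested. *Kazald1* fell from 7.15 ± 0.564 to 4.84 ± 0.807 CPM, a log2 fold change of -0.57 (edgeR adjusted p = 0.00675). *Igfbpl1* was counted 4, 7 and 0 times in control and 2, 3 and 1 times in senescent libraries, and like *Igfbp1* did not pass the filter on low counts.

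The next list held 10 genes for proteases that cut IGF binding proteins, the inhibitors of those proteases, and the acid-labile subunit, of which 8 were tested, 5 rose and 2 fell (median log2 fold change 0.68, against 0.01 over all genes, of which 70.3% were called, 36.2% higher and 34.1% lower). The stanniocalcins *Stc1* and *Stc2*, which inhibit pappalysins, rose by 1.75 (SE 0.10) and 1.54 (SE 0.07) on the log2 scale, from 7.91 to 26.6 CPM and from 8.56 to 24.9 CPM. *Htra1*, a secreted serine protease, rose from 55.6 to 114 CPM. *Pappa*, the pappalysin that cuts IGFBP4 and IGFBP5, was outside the rule for named genes and was chosen after its values were seen, for its tie to *Igfbp4*. It had 85.9, 79.6 and 80.7 CPM in the control libraries and 145, 150.1 and 172 CPM in the senescent libraries, a change of 0.92 ± 0.08 on the log2 scale (SE, edgeR adjusted p = 2.15e-05). The protease and its inhibitors were thus higher together at the RNA level. *Htra3* and *Adam12* fell by 0.68 and 0.22 on the log2 scale. *Igfals*, the acid-labile subunit, and *Prg2*, a pappalysin inhibitor, had at most 8 counts in any library and did not pass the filter on low counts. With no such filter *Prg2*, counted 0, 0 and 0 times in control and 5, 4 and 4 times in senescent libraries, was called higher (edgeR adjusted p = 0.0159), and *Igfals* was not (edgeR adjusted p = 0.0942).

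Of the 3 genes for RNA-binding proteins named for *Igf2* RNA, 1 rose, 1 fell and 1 was not called. Over all genes, 70.3% were called. *Igf2bp3* was counted 24, 42 and 35 times in control and 221, 329 and 310 times in senescent libraries, and rose by 2.63 (SE 0.16) on the log2 scale (edgeR adjusted p = 3.44e-06). *Igf2bp2*, with the highest level of the 3, fell from 56.4 to 36.7 CPM, a log2 fold change of -0.62 (edgeR adjusted p = 2.01e-05). *Igf2bp1* was at 6.13 ± 0.241 and 5.55 ± 0.0512 CPM (SD, n = 3 each; edgeR adjusted p = 0.157).

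Downstream of the receptors, 15 genes of the insulin receptor family and receptor adaptors were tested, of which 5 rose and 6 fell (median log2 fold change 0.06), beside 36.2% higher and 34.1% lower over all genes. The largest falls among well-counted genes were in *Grb14* (225 to 49.4 CPM, log2 fold change -2.19) and *Grb10* (926 to 420.1 CPM, -1.14), adaptors that hold back receptor signalling, and in *Irs1* (234 to 64.9 CPM, -1.85), the main docking protein that carries it forward. *Ptpn11*, the phosphatase SHP2, rose from 222 to 334 CPM (log2 fold change 0.59), and *Sos1*, an activator of RAS, from 45.8 to 64.3 CPM (0.49). *Insr*, the insulin receptor, was at 64.4 ± 3.98 and 67.3 ± 6.25 CPM (SD, n = 3 each; edgeR adjusted p = 0.506), with a log2 fold change of 0.06 that turned to -0.01 without senescent library 3. The highest points of this list in the plot of pathway genes are *Insrr* and *Irs4*, which were chosen after their values were seen and had few counts: 1, 0 and 1 for *Insrr* and 0, 4 and 0 for *Irs4* in the control libraries, against 18, 22 and 23 and 15, 30 and 32 in the senescent libraries.

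Of 24 genes of the PI3K, AKT, mTOR and FOXO branch, 24 were tested, 6 rose, 7 fell and 11 were not called (median log2 fold change 0.11). *Foxo1*, a transcription factor that AKT keeps out of the nucleus, rose from 17.2 to 41.4 CPM (log2 fold change 1.27), while *Foxo4* fell from 47.3 to 24.3 CPM (-0.96). *Rictor*, a subunit of mTOR complex 2, and *Rheb*, the activator of mTOR complex 1, rose by 0.79 and 0.68 on the log2 scale. *Pik3r3*, a regulatory subunit of PI3K, and the kinase *Akt2* fell by 0.99 and 0.60. These 13 calls stand beside the 70.3% called over all genes. The count of calls also depended on the libraries used. It was lowest at 10, without control library 2, where 11214 of 17928 genes in all were called. It was highest at 19, without control library 1 and senescent library 3, where 14131 of 17788 genes in all were called. That double omission was chosen after seeing the data. The balance of directions depended on the scaling and filter, with 8 higher and 7 lower under RLE scaling, 10 and 6 with library size alone, and 9 and 7 with 10 counts in every library.

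The growth hormone receptor axis, which drives *Igf1* in liver, had 5 genes, of which 2 rose and 2 fell. The shares over all genes were 36.2% higher and 34.1% lower. *Ghr*, the growth hormone receptor, rose from 62.4 ± 1.68 to 167 ± 23.6 CPM (SD, n = 3 each), a change of 1.42 ± 0.10 on the log2 scale (SE, edgeR adjusted p = 7.58e-06). Its signal carriers *Stat5a* and *Stat5b* fell by 0.98 and 0.65 on the log2 scale, and *Socs2*, a feedback inhibitor, rose by 0.29 (edgeR adjusted p = 0.0196), a call that was lost without control library 2 (edgeR adjusted p = 0.0645) or without control library 3 (edgeR adjusted p = 0.0798). *Igf1* itself was not called beside them.

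**Figure D5:**
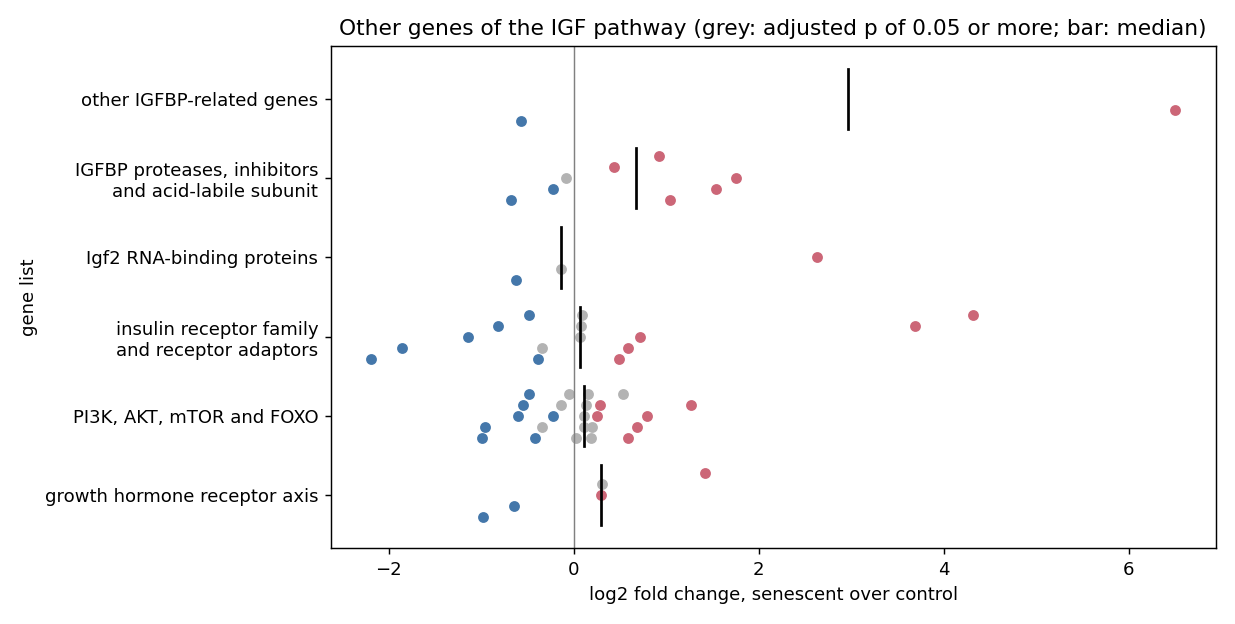
Log2 fold change, senescent over control, of the tested genes of 6 pathway lists, with red points higher and blue points lower at an edgeR adjusted p under 0.05, grey points not called, and a black bar at the median of each list. Each list has points on both sides of 0, and *Esm1* at 6.50 is furthest to the right.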

How the data were processed

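RNA of 3 control and 3 senescent libraries was made into stranded mRNA libraries from 200 ng of total RNA. The authors ran the MAPRSeq workflow, in which STAR aligned reads against mm10, counted genes with Subread and deposited raw counts per gene with each gene's exon length. The strand setting of the counting and the treatment of reads with several matches are not given in the sources used here. Groups were taken from the sample titles.

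Counts were filtered with filterByExpr, scaled with TMM (factors between 0.968 and 1.03) and fitted with edgeR's quasi-likelihood test on all 6 libraries, with Benjamini-Hochberg adjustment over 17589 genes. CPM were TMM-scaled, and levels between genes were divided by the exon length in kilobases. On several rows occur 59 symbols, none of them in the gene lists used. Tools were R 4.3.3, edgeR 4.0.16, limma 3.58.1 and DESeq2 1.42.0. The limit for a count of 0 is 3 counts and covers counting error only. Replicates differed by more than sampling noise, with a median squared difference of 1.74 to 4.66 times that of sampling between control libraries and 2.14 to 19.9 times between senescent ones, so none was counted as a duplicate. On simulated counts for this comparison (17453 genes tested), 100 of 100 genes changed by 1 and 100 of 100 changed by 2 on the log2 scale were recovered, with 12 false calls. The simulation gave all genes the same dispersion and the libraries no GC-linked deviations. It changed only well-counted genes, and far fewer than were called here. Its recovery and false calls therefore check the code and do not carry over to the real libraries.

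The genes and the pathway and marker lists were chosen with earlier results of these data known. Named genes were the 10 IGF genes, up to 3 called genes in each direction with the largest absolute change and a mean of at least 100 counts per pathway list (every gene of lists of 4 or fewer), and the most abundant markers. Alternatives were other scalings (RLE size factors, library size alone), other filters (1 count in total, 10 counts in every library), DESeq2, the study's call rule, a replicate block, leaving out libraries, a GC content term (natural spline, 4 degrees of freedom) and shares without division by length.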

Additional observations from a re-analysis of the deposited data

How the results depend on the processing

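The 8 IGF genes called kept their direction and their call under every scaling, filter and test tried and without each library in turn, where 8 were called each time; with the GC content term 9 were called. Under the call rule of the study's methods, 5 IGF genes and 5300 genes in all were called. So were 1 of the other IGFBP-related genes, 3 of the proteases and inhibitors and 1 of the *Igf2* RNA-binding proteins. Also called were 5 of the insulin receptor family and adaptors, 1 of the PI3K branch and 1 of the growth hormone axis. These counts are lower since that rule asks for a larger change. *Igf1* reversed to -0.024 without senescent library 3 and to -0.18 with the GC content term. *Igf2r*, never called, reversed to 0.011 with RLE scaling, 0.068 with library size alone, 0.039 with 10 counts in every library, 0.011 with DESeq2, 0.0027 without senescent library 1, 0.0083 without control library 1 and senescent library 3, and 0.019 with the GC content term; the cause was not tested. Dropping the filter, which left 29776 genes tested and 13739 called, moved the median log2 fold change of all genes to 0.31, with more low genes tested, while *Igf2* stayed at 3.86.

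Leaving out libraries 1 at a time, and control library 1 with senescent library 3 together, gave between 11214 and 14131 called genes. Log2 fold changes ranged from 3.83 to 3.89 for *Igf2*, 0.48 to 0.60 for *Igf1r*, -1.16 to -0.79 for *Igfbp2*, -1.29 to -1.24 for *Igfbp3*, -0.43 to -0.28 for *Igfbp4*, -1.97 to -1.89 for *Igfbp5*, -1.59 to -1.03 for *Igfbp6*, 0.24 to 0.27 for *Igfbp7*, -0.024 to 0.11 for *Igf1* and -0.026 to 0.0083 for *Igf2r*. The double omission and the GC content term were chosen after seeing the data. Shares computed without division by length were 11.6% and 12.1% for *Igfbp2* in control and senescent cells, 29.0% and 48.0% for *Igfbp4*, 54.0% and 30.7% for *Igfbp5*, 0.230% and 0.191% for *Igfbp6*, 2.56% and 6.56% for *Igfbp7*, and 2.66% for *Igfbp3* in control cells.

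Replicate numbers occur in both groups, but deviations of same-numbered libraries correlated at -0.374, 0.293 and -0.263, and not every library correlated best with its own number, so the numbers were not taken as pairs. With the replicate block, 8 IGF genes and 11624 genes were called. The block also put *Socs2* at an edgeR adjusted p of 0.0588. Depth limits *Igfbp1*, *Igfbpl1*, *Igfals* and *Prg2*, which were tested only with no filter, where *Prg2* was called, so that 8 of 10 genes of the protease list were.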
